A study of Mus musculus with 4 samples.

Results

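Clade B serpins are the mostly intracellular branch of the serpin family, and 7 of them known from keratinocytes were followed here by gene symbol: Serpinb1a, Serpinb2, Serpinb5, Serpinb6a, Serpinb8, Serpinb9 and Serpinb11. They were read by 10 of the 22626 probe sets of an Affymetrix Mouse Expression Array 430A, and they are 7 of the 12393 genes that have a probe set of their own on it. The RNA came from primary cultures of tail skin keratinocytes of C57BL/6 mice, and every mouse carried a floxed Prdm1 gene. Control cells had no CreER, the Cre recombinase fused to an estrogen receptor domain, and the cells labelled CKO had it. Each genotype received 4-hydroxytamoxifen (4OHT), which activates CreER, or its solvent ethanol (EtOH) between days 1 and 3 and was harvested on day 5. Crossing genotype and treatment gives 4 groups, named control EtOH, CKO EtOH, control 4OHT and CKO 4OHT, with 1 array each. The sources used here do not state the promoter that drives CreER, the ages of the mice or the number of mice behind each culture. With 1 array per group no spread between replicates can be estimated, so no difference below was tested and none has a p-value; the genotypes also came from different mice, so genotype and animal cannot be told apart.

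Serpins are protease inhibitors that offer a flexible reactive centre loop as bait. A serine protease that cuts the loop is trapped in a covalent complex as the serpin changes shape, while some family members have lost this inhibitory function. Clade B members lack a classical secretion signal and act mainly in the cytosol, where they are known to protect cells from their own or from foreign proteases, and several are abundant in stratified epithelia. Prdm1 encodes Blimp-1, a transcriptional repressor that is also made in the upper layers of the epidermis.

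Serpinb1a and Serpinb11 stood out among the 7 genes, each on a different array. Serpinb1a was lowest in CKO 4OHT, 2.84-fold under the next array. Serpinb11 was highest in control 4OHT, 2.12-fold over the next array. The values of Serpinb2, Serpinb5, Serpinb6a and Serpinb8 spanned less than 2-fold over the 4 arrays, and Serpinb9 was dim on all of them. Of all measured genes, those that reached the median of the table on at least 1 array, 6.07% spanned at least 2-fold, and 2 of the 6 measured members did.

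**Figure D1:**
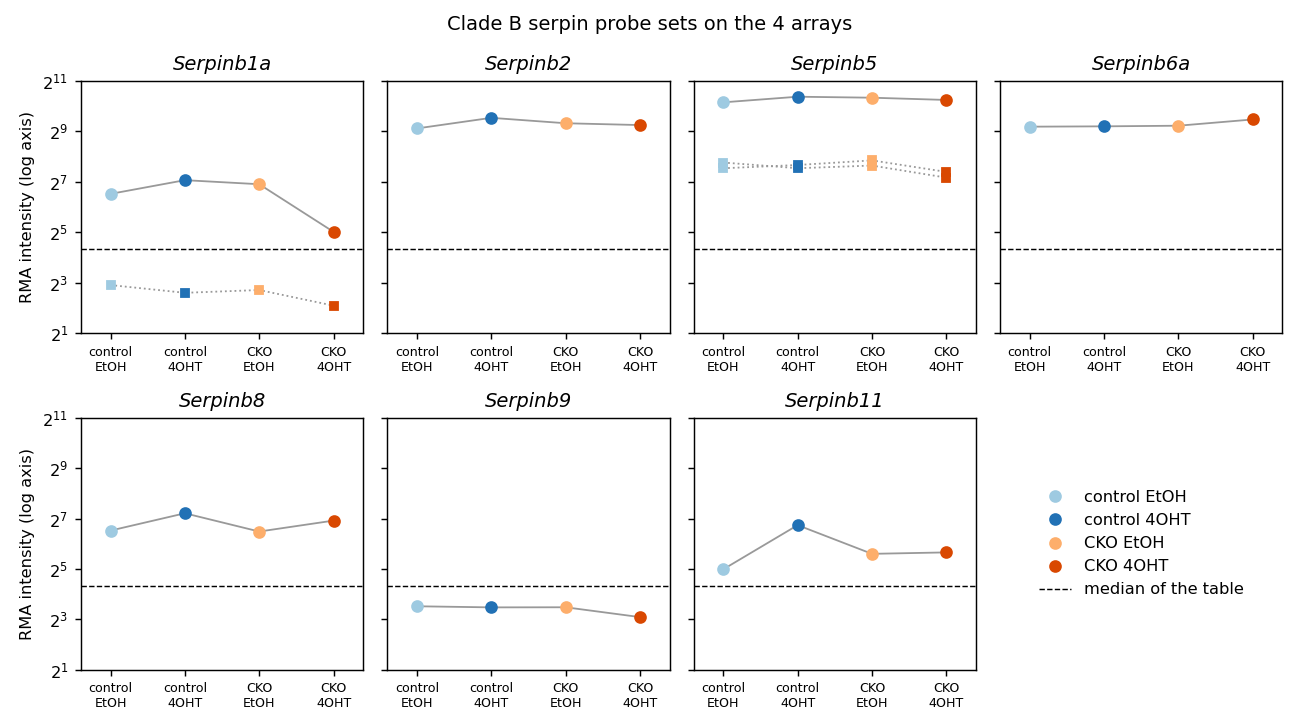
RMA intensity (log axis) of every probe set of the 7 clade B serpins on the 4 arrays, 1 point per array; circles joined by solid lines are the probe set that stands for the gene, squares joined by dotted lines are further probe sets, and the dashed line is the median of the table (20.04). Serpinb1a drops to 32.3 on the CKO 4OHT array, Serpinb11 peaks at 107 on the control 4OHT array, and Serpinb9 stays under the dashed line.

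The targeted gene and the lineage of the cells were read first. Prdm1 (probe set 1420425_at) had intensities of 20.7 (EtOH) and 52.4 (4OHT) in control cells and of 17.0 and 6.43 in CKO cells, lowest where recombinase and inducer were both present. The sources used here do not state whether this probe set lies in the deleted part. The basal keratins Krt14 (6437 to 6663) and Krt5 (3298 to 3774) were bright on all 4 arrays. Of 8 markers of basal keratinocytes 7 reached the median of the table, and the keratin Krt15 (10.6 to 15.5) did not. Of 11 leukocyte markers on the array 2 reached the median of the table, and of 5 neutrophil markers none did; Ptprc, the pan-leukocyte phosphatase, lay between 3.90 and 4.73. A gene is called measured here if its highest value reached that median, which 7461 genes and 6 of the 7 serpins did, and called higher or lower if a pair of arrays differed by at least 2-fold, which is 1 on the log2 scale.

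Members that inhibit proteases of leukocyte granules were Serpinb1a, Serpinb6a and Serpinb9. Serpinb1a inhibits neutrophil elastase, cathepsin G and proteinase 3. Its probe set 1416318_at had intensities of 91.9 with EtOH and 134 with 4OHT in control cells, and of 120 with EtOH and 32.3 with 4OHT in CKO cells. The other 3 arrays lay within 1.46-fold of each other, and CKO 4OHT lay below all of them. The log2 difference was -1.89 against CKO EtOH and -2.05 against control 4OHT, which placed Serpinb1a 18th and 25th from the lowest of 7461 measured genes. These comparisons share the CKO 4OHT array and are not independent.

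Of all measured genes, 1.09% shared this property of a CKO 4OHT value at least 2-fold under each other array. A second Serpinb1a probe set (1448301_s_at), of a design that can bind related transcripts, was dim, with 7.48 and 6.05 in control cells and 6.53 and 4.25 in CKO cells, EtOH first. It was also lowest in CKO 4OHT, with smaller differences of -0.62 against CKO EtOH and -0.51 against control 4OHT. With the median of both probe sets in place of the brighter one, the differences of Serpinb1a became -1.26 and -1.28, still past 2-fold. The size of the difference thus rests on a single probe set.

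Serpinb6a, another inhibitor of cathepsin G, was nearly level. Control cells had 584 with EtOH and 589 with 4OHT, and CKO cells had 599 and 712. CKO 4OHT was the highest array, by 0.25 on the log2 scale over CKO EtOH and 0.27 over control 4OHT, a difference that 41.4% and 41.1% of measured genes matched or exceeded in size. Serpinb9, the inhibitor of granzyme B, had values of 11.5 and 11.1 in control cells and 11.1 and 8.51 in CKO cells, EtOH first, all under the median of the table, so that its difference of -0.39 against both CKO EtOH and control 4OHT rests on dim signal.

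Serpinb2 and Serpinb8 are inhibitors with known targets outside leukocytes. Serpinb2, plasminogen activator inhibitor type 2, which inhibits urokinase, was bright, at 556 with EtOH and 744 with 4OHT in control cells and at 641 and 610 in CKO cells. It was highest in control 4OHT, 0.42 above control EtOH, and CKO 4OHT differed from CKO EtOH by -0.07. Serpinb8, an inhibitor of the proprotein convertase furin, had 91.9 with EtOH and 148 with 4OHT in control cells and 89.5 and 121 in CKO cells. Both 4OHT arrays lay above both EtOH arrays for Serpinb8, by 0.69 in control cells and 0.43 in CKO cells, neither of them 2-fold. Of all measured genes, 4.72% differed by at least as much as Serpinb8 in control cells and 19.2% in CKO cells.

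Serpinb5, or maspin, is a clade B member without inhibitory function, known as a tumour suppressor of epithelia. Its brightest probe set, 1421752_a_at, had 1140 with EtOH and 1330 with 4OHT in control cells and 1295 and 1217 in CKO cells. The whole span of 0.22 on the log2 scale was exceeded or matched by 79.9% of measured genes. The other probe sets were dimmer, at 168 to 231 (1424623_at) and 144 to 218 (1438856_x_at), and both had their lowest value in CKO 4OHT. Against CKO EtOH the 3 probe sets of Serpinb5 differed by -0.09 to -0.48, and in control 4OHT against control EtOH they ran from -0.23 to 0.22. For the 2524 genes with several measured probe sets, the differences of one gene spread by a median of 0.23 to 0.29 and by 0.65 to 0.83 at the 95th percentile, depending on the comparison. This spread is between probe sets on the same arrays and does not measure variation between cultures.

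Serpinb11, which in the mouse inhibits trypsin-like proteases, had 31.7 with EtOH and 107 with 4OHT in control cells, and 48.5 with EtOH and 50.4 with 4OHT in CKO cells. The control 4OHT array lay above the other 3, and both CKO arrays lay together between the control arrays. In control cells the 4OHT array was 1.75 higher on the log2 scale, or 3.37-fold, the 6th highest difference of 7461 genes. In CKO cells the same contrast gave 0.06. The log2 difference of CKO 4OHT from control 4OHT was -1.08, a value that shares the control 4OHT array with the first one and became -0.89, under 2-fold, when 16 intensity units were added before taking log2. CKO EtOH exceeded control EtOH by 0.61, which 0.978% of measured genes matched or exceeded in size. A control 4OHT value at least 2-fold over each other array was seen in 0.281% of measured genes.

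**Figure D2:**
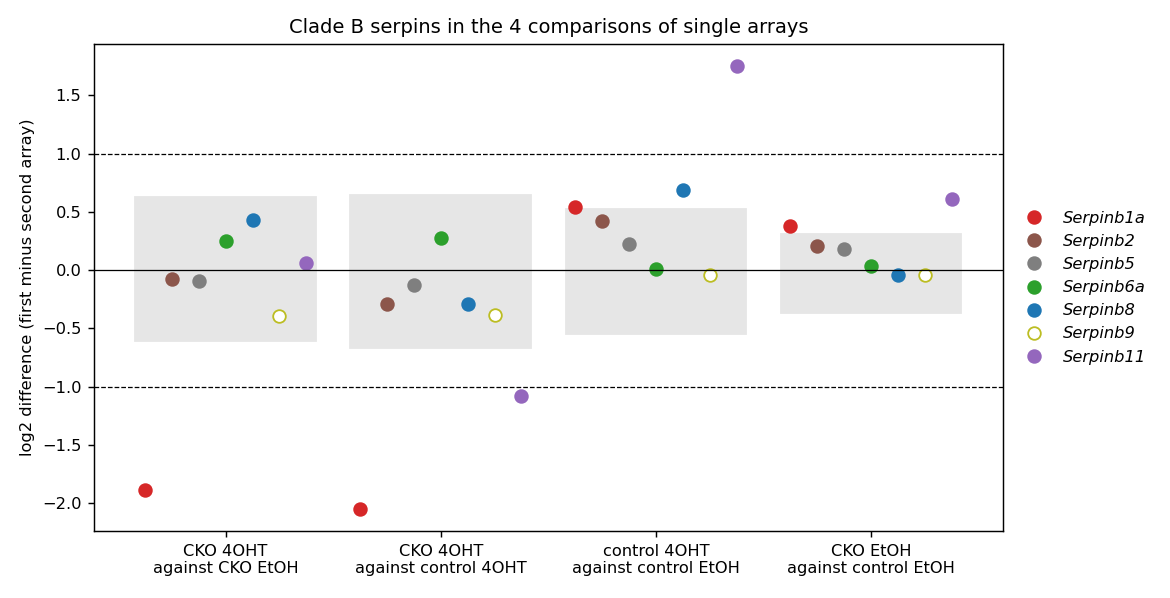
Log2 differences of the 7 clade B serpins in the 4 comparisons of single arrays, each as first array minus second; grey boxes hold the middle of all measured genes (5th to 95th percentile), dashed lines mark 2-fold, and the open circle is Serpinb9, which was not measured above the median of the table. Serpinb1a lies at -1.89 and -2.05 in the comparisons of CKO 4OHT, and Serpinb11 at 1.75 for 4OHT in control cells.

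Counted over the 6 measured members, CKO 4OHT against CKO EtOH had 0 higher and 1 lower (Serpinb1a), where 1.78% of all measured genes were higher and 1.86% lower. The median of the members was -0.01, beside 0.01 for all genes. CKO 4OHT against control 4OHT had 0 higher and 2 lower, Serpinb1a and Serpinb11, with 1.45% of all measured genes higher and 2.24% lower, and medians of -0.29 for the members and 0.01 for all genes. Control 4OHT against control EtOH had 1 higher (Serpinb11) and 0 lower, beside 1.27% and 0.241% of all measured genes, and medians of 0.48 and -0.04. All 6 measured members had a value above 0 in that last comparison, as did 43.3% of all measured genes, although Serpinb6a was at 0.01 and the dimmer probe sets of Serpinb1a (-0.31) and Serpinb5 (down to -0.23) went the other way. CKO EtOH against control EtOH had 0 members past 2-fold in either direction, beside 0.0536% of all measured genes, and medians of 0.19 and -0.03. Of the 6 members, 5 were highest on the control 4OHT array, where 23.9% of measured genes had their highest value, and Serpinb6a was highest in CKO 4OHT. The count is for the brightest probe set of each gene: the dimmer ones of Serpinb5 were highest in CKO EtOH (1424623_at) and control EtOH (1438856_x_at), and that of Serpinb1a in control EtOH. With the dim Serpinb9 included, the medians over 7 members in the first 3 comparisons were -0.07, -0.29 and 0.42.

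The 4OHT contrast can be set side by side in both genotypes without sharing an array. Serpinb1a differed by 0.54 in control cells and by -1.89 in CKO cells, with opposite signs. The control difference was under 2-fold, and 9.78% of measured genes matched or exceeded it in size. The dimmer Serpinb1a probe set did not share the opposite signs and differed by -0.31 and -0.62. Serpinb11 differed by 1.75 and 0.06, and Serpinb8 by 0.69 and 0.43. The CKO value minus the control value was -2.44 for Serpinb1a, the 20th lowest of 7461 genes, and -1.69 for Serpinb11, the 61st lowest. It was between -0.49 (Serpinb2) and 0.23 (Serpinb6a) for the other measured members. Of all measured genes, 2.9% were at least 2-fold lower in this difference of differences, and Serpinb1a was at -1.37 with the median of its probe sets.

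**Figure D3:**
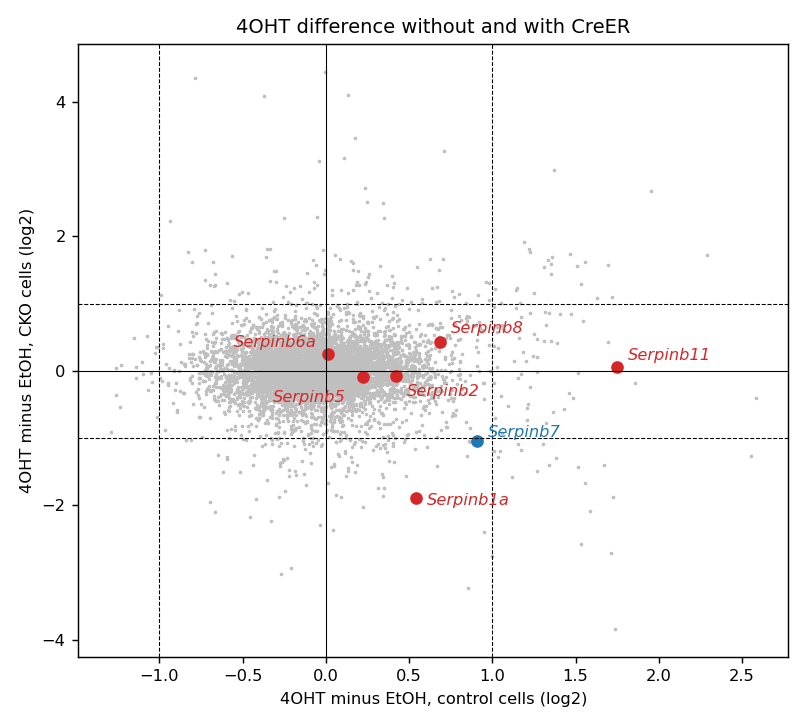
Difference between 4OHT and EtOH on the log2 scale in control cells without CreER (x axis) and in CKO cells with CreER (y axis); each grey point is 1 of 7461 measured genes, red points are the 6 measured members and the blue point is Serpinb7, with dashed lines at 2-fold. Serpinb1a lies at 0.54 and -1.89, Serpinb11 at 1.75 and 0.06, and Serpinb7 at 0.91 and -1.04.

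The mouse genes of clade B lie in a cluster on chromosome 1, which holds Serpinb2, Serpinb5, Serpinb8 and Serpinb11, and in a cluster on chromosome 13, which holds Serpinb1a, Serpinb6a and Serpinb9. Of the other clade B genes, 7 had a probe set of their own and 2 of them, Serpinb7 and Serpinb6c, were measured. Serpinb7, the direct neighbour of Serpinb11 and known for its role in palmoplantar skin, had 12.5 with EtOH and 23.4 with 4OHT in control cells and 13.8 and 6.71 in CKO cells. It was highest in control 4OHT like Serpinb11 and lowest in CKO 4OHT like Serpinb1a, with differences of -1.04 against CKO EtOH and -1.80 against control 4OHT, although it reached the median of the table in control 4OHT only. Serpinb6c, whose probe set is of a design that can bind related genes such as Serpinb6a, had 109 and 96.1 in control cells and 88.7 and 127 in CKO cells, EtOH first, with CKO 4OHT highest as for Serpinb6a.

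The genes that flank the members and the clusters were read as well where they had a probe set of their own. Cdh7, beside Serpinb8, and the clade B neighbours Serpinb10, Serpinb12, Serpinb1c and Serpinb3c had none. Vps4b, a neighbour of Serpinb5 that encodes a subunit of the membrane remodelling machinery, lay between 376 and 463 on the 4 arrays. Wrnip1, beside Serpinb1a, differed by -0.15 in CKO 4OHT against CKO EtOH, while Serpinb1a differed by -1.89. Against control 4OHT the differences were 0.43 for Wrnip1 and -2.05 for Serpinb1a. Nqo2, a quinone reductase gene beside Serpinb6a, was lowest in control 4OHT, -0.89 from control EtOH, and highest in CKO 4OHT at 26.6. CKO 4OHT exceeded control 4OHT by 1.15 for Nqo2, where 1.45% of all measured genes were higher. This rests on dim signal, at 12.0 in control 4OHT.

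Promoter windows of 250 bases before the transcription start were available for 6 of the 7 members (8 windows, RefSeq, GRCm38.p6); Serpinb1a has no entry. Those of Serpinb11 (chr1:107362064-107362313, plus strand) and Serpinb8 (chr1:107589756-107590005, plus strand) are printed because these members had the largest 4OHT differences in control cells. Capitals mark TGANTCA, a looser form of the AP-1 transcription factor site TGAGTCA that allows any base in the middle.
Serpinb11: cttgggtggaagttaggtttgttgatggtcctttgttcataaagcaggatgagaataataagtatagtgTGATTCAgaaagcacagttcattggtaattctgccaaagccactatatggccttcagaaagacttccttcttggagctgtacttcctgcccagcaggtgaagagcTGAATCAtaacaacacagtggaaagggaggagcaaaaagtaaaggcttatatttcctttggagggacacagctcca
Serpinb8: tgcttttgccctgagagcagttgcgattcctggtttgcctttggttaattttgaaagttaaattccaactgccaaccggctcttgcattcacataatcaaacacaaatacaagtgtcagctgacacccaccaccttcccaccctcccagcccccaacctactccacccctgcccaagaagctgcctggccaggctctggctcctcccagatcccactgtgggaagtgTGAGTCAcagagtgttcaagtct
The Serpinb11 window holds 2 matches, which begin 181 and 76 bases before the start, and the Serpinb8 window holds 1 that begins 23 bases before it. The Serpinb8 match and that of Serpinb7 read TGAGTCA, which is a stricter form contained in TGANTCA, and 4.46% of all windows hold it on either strand. All 4 members on chromosome 1 had TGANTCA in their windows (5 of 5 windows), and the members on chromosome 13 had none (0 of 3 windows). The 2 windows of Serpinb2 overlap and hold the same site. Over all clade B genes with a window, 7 of 11 on chromosome 1 and 0 of 15 on chromosome 13 had a match. By windows this was 8 of 13 and 0 of 19, beside 6.75% of all 32851 promoter windows. These windows are not independent. Those of Serpinb9d, Serpinb9e, Serpinb9f and Serpinb9g are nearly the same sequence, as are those of Serpinb3a, Serpinb3b and Serpinb3c, and the windows of Serpinb6d overlap.

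GNGAAAG, the core letters of the Blimp-1 site, was in 0 of the 5 windows on chromosome 1 and in 2 of the 3 on chromosome 13, those of Serpinb9 and of the second start of Serpinb6a, beside 19.4% of all windows. Over all clade B genes it was in 2 of 13 windows on chromosome 1 and in 5 of 19 on chromosome 13, so that the contrast among the members was not seen at that size over the clusters. TATAAA was in both windows of Serpinb2, which overlap and share a single site, and in no other window of a member, beside 12.4% of all windows. Over all clade B genes it was in 9 of 13 windows on chromosome 1, those of Serpinb7, Serpinb12 and 4 Serpinb3 genes included, and in 1 of 19 on chromosome 13. The matches of Serpinb3a, Serpinb3b and Serpinb3c lie in nearly the same sequence and are not separate observations. All motifs were searched on both strands. A match is a run of letters in a fixed window; no binding was measured.

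Genes whose levels followed those of Serpinb1a and Serpinb11 were taken by the smallest Euclidean distance between log2 values centred on each gene's own mean over the 4 arrays. Nearest to Serpinb1a were Oplah (distance 0.19), the 5-oxoprolinase of glutathione turnover, Cyp2s1 (0.19), a cytochrome P450 of epithelia, and Phyh (0.21), a peroxisomal enzyme of phytanic acid oxidation. Oplah had 94.0 with EtOH and 120 with 4OHT in control cells and 115 and 34.5 in CKO cells. Cyp2s1 went from 148 in CKO EtOH to 44.2 in CKO 4OHT, and Phyh from 379 to 104. All 3 were lowest in CKO 4OHT by more than 2-fold, which follows from their choice by likeness to Serpinb1a on these same arrays.

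Nearest to Serpinb11 were Pdzk1ip1 (0.18), a small membrane protein of epithelia, Dsc1 (0.24), a desmosomal cadherin of the upper epidermis, and Sprr2i (0.34), a cornified envelope precursor. Pdzk1ip1 had 127 with EtOH and 364 with 4OHT in control cells and 192 and 188 in CKO cells. Dsc1 went from 18.5 to 66.8 with 4OHT in control cells and from 28.6 to 25.2 in CKO cells. The likeness is a description over 4 arrays, and the shared pattern follows from how the genes were chosen.

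**Figure D4:**
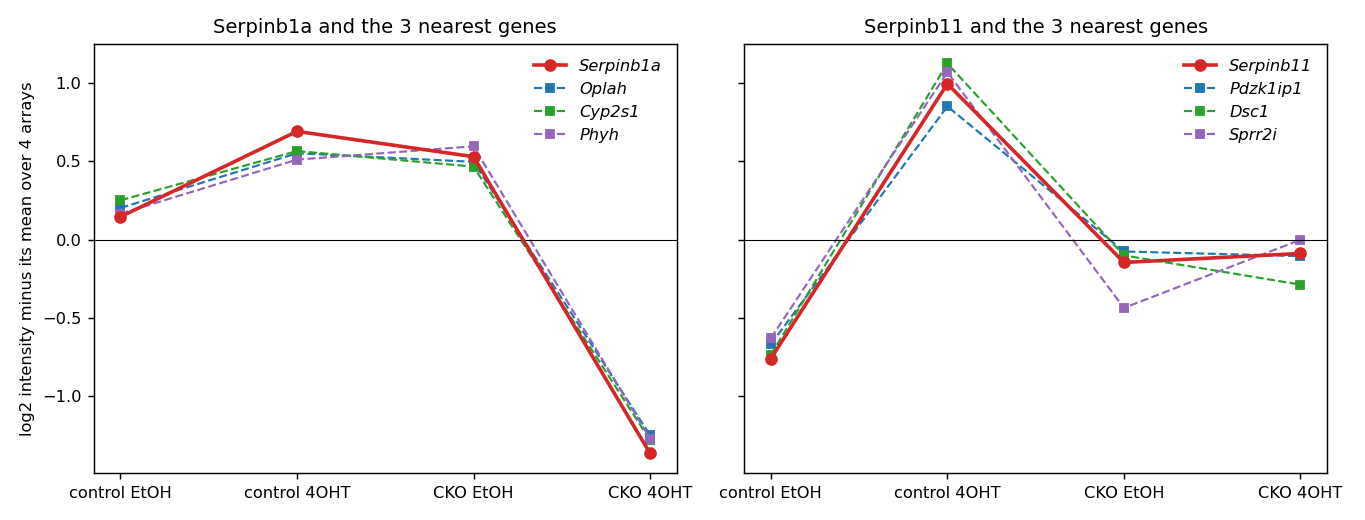
Log2 intensity minus the gene's mean over the 4 arrays for Serpinb1a (left) and Serpinb11 (right), in red, with the 3 measured genes outside clade B whose profiles were nearest. Serpinb1a, Oplah, Cyp2s1 and Phyh share the low CKO 4OHT array, and Serpinb11, Pdzk1ip1, Dsc1 and Sprr2i share the high control 4OHT array. The genes were chosen for this likeness on the same arrays.

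Markers of other cells and of differentiation were read beside the serpins, since leukocytes also make Serpinb1a. The summed level of the 11 leukocyte markers was 108 and 115 in control cells and 109 and 107 in CKO cells, EtOH first, and that of the 5 neutrophil markers was between 43.0 and 47.2. With 2 of 11 and 0 of 5 measured, these sums consist mostly of dim signal and do not show whether the share of such cells changed. The measured ones were Cd3e, of the T cell receptor complex, at 23.4 to 28.9, and Laptm5, a lysosomal protein of leukocytes, at 16.2 to 21.7.

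The 6 macrophage markers on the array summed to 244 and 255 in control cells and to 235 and 170 in CKO cells. Of these, 2 were measured, and they went in opposite directions. Cd68, a lysosomal glycoprotein, had 171 with EtOH and 98.2 with 4OHT in CKO cells, while Cd14, a co-receptor for lipopolysaccharide, had 22.4 and 32.8. Against control 4OHT, CKO 4OHT differed by -1.01 for Cd68 and by 0.74 for Cd14.

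Of the 4 Merkel cell markers 2 were measured, and both passed 2-fold in CKO 4OHT against CKO EtOH, as did 3.65% of all measured genes. Krt8 and Krt18, the paired keratins of simple epithelia, did so in opposite directions, Krt8 from 90.2 to 43.8 (-1.04) and Krt18 from 10.7 to 30.2 (1.49). Krt18 reached the median of the table in CKO 4OHT only. Of the 4 Langerhans cell markers only Epcam, an adhesion molecule that other epithelial cells make as well, was measured, and it went from 161 to 325 (1.01). Of 6 melanocyte markers 4 were measured, with a median of 0.37 in that comparison and none past 2-fold; the brightest were Dct, a melanin synthesis enzyme, at 26.5 to 40.3, and Sox10, a neural crest transcription factor, at 27.7 to 32.6. Of 8 fibroblast markers 1 was measured, the proteoglycan Dcn at 21.6 to 26.1, and no endothelial or mast cell marker was.

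The differentiation keratin Krt1 had the same order of arrays as Serpinb1a, at 136 and 246 in control cells and 205 and 21.8 in CKO cells. Among the other measured markers of differentiating keratinocytes, Lor had this order as well. Krt10 and Dsc1 were lowest in control EtOH, and Tgm1 and Sprr1a were highest in CKO 4OHT. Of 8 markers of differentiating keratinocytes on the array 6 were measured, while Ivl and Flg stayed under the median of the table. Of the 6 measured, 1 was higher (Tgm1) and 1 lower (Krt1) in CKO 4OHT against CKO EtOH. With 4OHT in control cells 2 were higher (Tgm1 and Dsc1), as was Serpinb11. In CKO 4OHT against control 4OHT, where both Serpinb1a and Serpinb11 were lower, 0 were higher and 2 lower, Krt1 (-3.50) and Dsc1 (-1.41), around a median of -0.52. In the difference of the 4OHT effects 3 of the 6 were at least 2-fold lower, with a median of -0.85, beside 2.9% of all measured genes. In CKO 4OHT 1.78% of all measured genes were higher and 1.86% lower against CKO EtOH. Against control 4OHT these shares were 1.45% and 2.24%, and 1.27% were higher with 4OHT in control cells. The part of all these marker genes in the differences of the serpins was not tested. In a culture a smaller share of cells of 1 state and less RNA per cell cannot be told apart.

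Of 22 genes set beside the clade B serpins, most of them proteases and among them known targets of theirs, 11 were measured. In CKO 4OHT against CKO EtOH 3 were higher and 0 lower, all kallikreins of the epidermis: Klk6 (1.91), Klk8 (1.77) and Klk7 (1.01). In that comparison 1.78% of all measured genes were higher and 1.86% lower. The same 3 kallikreins were higher with 4OHT in control cells, by 1.19, 1.22 and 1.05, beside 1.27% of all measured genes. Klk6 had 64.5 and 147 in control cells and 106 and 399.9 in CKO cells, EtOH first, with CKO 4OHT highest. Urokinase (Plau, 12.2 to 13.4), the target of Serpinb2, elastase (Elane, 11.4 to 13.5), the target of Serpinb1a, and granzyme B (Gzmb, 6.40 to 8.02), the target of Serpinb9, were under the median of the table on every array. Furin, the target of Serpinb8, was measured and lay between 45.2 and 52.3.

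Of 10 measured genes of plasminogen activation, coagulation and their receptors, 1 was higher in CKO 4OHT against CKO EtOH and 0 were lower. The shares of all measured genes were 1.78% and 1.86%. The higher gene was Procr, the endothelial protein C receptor, with 64.7 and 36.4 in control cells and 58.7 and 199 in CKO cells. Procr belongs to the coagulation part of the list, not to plasminogen activation. Its probe set is of a design that can bind related transcripts. The median of this list was 0.06 in that comparison. Plaur, the urokinase receptor, had 9.56 and 12.7 in control cells and 11.6 and 22.6 in CKO cells, a CKO difference of 0.96 that was under 2-fold.

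Protease inhibitors outside clade B went both ways. Of 13 measured epidermal inhibitors, 2 were higher and 2 lower in CKO 4OHT against CKO EtOH, around a median of 0.20. The shares of all measured genes were 1.78% higher and 1.86% lower. Cst6, the cystatin that restrains cathepsins in the cornified layer, had 35.9 with EtOH and 92.8 with 4OHT in control cells and 39.5 and 312 in CKO cells, and Timp2, an inhibitor of metalloproteases, differed by 1.09. Wfdc12 and Wfdc18, of the whey acidic protein family, were lower, with differences of -1.67 and -2.09, and both were higher with 4OHT in control cells, by 1.55 and 1.59. They had their highest value in control 4OHT and their lowest in CKO 4OHT, as did Serpinb1a. The Wfdc18 probe set is of a design that can bind related transcripts, so that these may not be separate observations. Without the inducer Wfdc12 and Wfdc18 already differed between genotypes. CKO EtOH exceeded control EtOH by 0.87 for Wfdc12 and by 1.05 for Wfdc18, where 0.0536% of all measured genes passed 2-fold. Of 5 measured serpins of other clades, none passed 2-fold in CKO 4OHT against CKO EtOH, and Serpina3n, a secreted acute phase inhibitor, differed from control 4OHT by -1.09.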

How the data were processed

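RNA of 4 keratinocyte cultures, 1 per group, was read on 4 arrays. The authors deposited linear intensity values, 1 for each probe set on each array, which were made with RMA (background correction, normalization between arrays, probe summary) per the submitters' processing notes. The sources used here do not state its version. RMA removes shifts common to most transcripts and compresses dim differences. Array medians were between 19.95 and 20.22. The number of arrays limits the precision.

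From these, log2 was taken with no pseudocount (Python 3.11.15, pandas 2.3.3). The platform annotation named 1 gene for 20380 probe sets, several for 691 and did not list 1555. A gene was represented by its probe set of highest mean log2, and all 7 members matched the gene table. Calls used 2-fold and the level filter given in the report. Counting was tested on simulated data with planted shifts above the fold threshold and little noise, which checks the code and not how reliable the calls are. Alternatives were other probe set, level, fold, pseudocount and normalization choices.

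The members, gene lists and likeness rule were chosen with earlier results of these data known. Named genes were all members, measured clade B relatives, list and marker genes past 2-fold (or the 2 brightest), flanking genes and the 3 nearest profiles of members spanning 2-fold; motifs, Plau, Elane, Gzmb, Furin, Plaur, Ptprc and Cd14 were chosen after values were seen.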

Additional observations from a re-analysis of the deposited data

Results flagged for a closer look

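Serpinb1a differed by 0.54 between 4OHT and EtOH in control cells and by -1.89 in CKO cells, with opposite signs. Only the CKO difference passed 2-fold, and 9.78% of measured genes differed by at least as much as Serpinb1a in control cells. The difference between these effects was -2.44 on the log2 scale. It was not tested, since each group has 1 array, and 2.9% of measured genes were at least 2-fold lower in the same quantity. The dimmer Serpinb1a probe set differed by -0.31 in control cells and by -0.62 in CKO cells, in the same direction, and lay under the median of the table on all 4 arrays.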

How the results depend on the processing

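No paired analysis was possible because each group has 1 array. Of 210 member values recomputed under the 7 alternatives, 207 kept their side of the fold threshold, 3 did not and 0 of the called ones changed sign. Many of these values could not move. The level filters and the 1.5-fold setting leave the differences themselves unchanged. The probe set choices do so for Serpinb2, Serpinb8 and Serpinb11. The count is therefore no measure of how firm the calls are. At a 1.5-fold threshold 2 members in place of 1 were past it in control 4OHT against control EtOH (Serpinb8 added, 0.69) and 1 in place of 0 in CKO EtOH against control EtOH (Serpinb11, 0.61), where 7.87% and 1.34% of all measured genes passed. With a pseudocount of 16, 1 member in place of 2 was past 2-fold in CKO 4OHT against control 4OHT (Serpinb11 at -0.89), and 1.97% of genes in place of 3.69%. In CKO 4OHT against CKO EtOH the share of genes called was 11.1% at 1.5-fold, 1.88% with the pseudocount and 2.29% with no level filter, in place of 3.65%, with Serpinb1a past the threshold in each. In control 4OHT against control EtOH it was 0.844% with the pseudocount in place of 1.51%. Without probe sets ending in _s_at, _x_at or _a_at, Serpinb6a had no value. Leaving out a replicate could not be done with 1 array per group.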
